A study of Homo sapiens with 24 samples.

Results

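A set of 10 genes widely read as marks of the epithelial or mesenchymal state of a cell, CDH1, EPCAM, KRT8, KRT18, CDH2, VIM, ZEB1, ZEB2, SNAI1 and SNAI2, were followed through RNA-seq of 2 prostate cancer cell lines in which the RNA methyltransferase METTL3 was depleted with or without androgen. They were chosen by name, with earlier results of these data known, and are 10 of the 60675 genes in the count tables. LNCaP:C42 is a castration-resistant derivative of the LNCaP line, and 22Rv1 is a castration-resistant line that also carries androgen receptor splice variants. All cells were kept in phenol red-free medium with 10% charcoal-stripped serum, which is poor in androgen, and all were transfected 2 times with siRNA: a first transfection for 48 h, then a second at the start of 72 h with either 1 nM R1881, a synthetic androgen, or the ethanol vehicle. The siRNA was either a single SMART pool against METTL3 (siMETTL3) or a non-targeting scrambled pool (siSCR), so that each control also received siRNA. Line, siRNA pool and treatment give 8 groups of 3 libraries each, 24 in all. The labels do not say whether the 3 libraries of a group came from separate cultures, so every p-value here measures only the spread between these libraries, which may be technical. In bulk RNA, fewer cells with a transcript and less of it per cell cannot be told apart.

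Epithelial cells hold to one another through E-cadherin, the product of CDH1, and carry a cytoskeleton of keratins, of which keratins 8 and 18 pair in the luminal cells of the prostate. In an epithelial-mesenchymal transition, transcriptional repressors of the ZEB and SNAI families bind E-box sequences in the promoters of epithelial genes, E-cadherin gives way to N-cadherin (CDH2), and the keratin filaments to vimentin (VIM). Prostate cancer lines can hold intermediate states, and the androgen receptor is known to act on genes of both programmes.

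The windows around the start sites of CDH2 and VIM are shown because these genes differed between the lines in opposite directions. Each covers 250 bases before to 50 after a RefSeq start site on GRCh38.p14, 5' to 3' on the strand of the gene. The CDH2 window is chr18:28177081-28177380, minus strand, and its start site is 316 bases from the gene start of the count tables. The VIM window is chr10:17227991-17228290, plus strand, 18 bases from it. Capitals mark the GC box GGGCGG or, on the other strand, CCGCCC.
CDH2: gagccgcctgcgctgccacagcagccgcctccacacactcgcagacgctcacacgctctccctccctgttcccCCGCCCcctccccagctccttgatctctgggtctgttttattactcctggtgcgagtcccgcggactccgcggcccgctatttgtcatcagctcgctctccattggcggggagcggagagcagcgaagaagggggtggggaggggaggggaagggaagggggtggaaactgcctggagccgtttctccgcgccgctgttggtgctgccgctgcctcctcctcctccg
VIM: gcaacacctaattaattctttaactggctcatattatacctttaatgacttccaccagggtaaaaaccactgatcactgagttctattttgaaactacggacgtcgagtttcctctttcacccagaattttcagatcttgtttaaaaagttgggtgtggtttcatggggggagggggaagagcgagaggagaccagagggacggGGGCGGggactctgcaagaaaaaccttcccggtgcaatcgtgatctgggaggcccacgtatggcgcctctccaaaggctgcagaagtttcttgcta

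Each of these windows held 1 GC box, a motif bound by SP1 family factors that is present in 45.0% of the 35116 RefSeq windows of 300 bases. Neither held the E-box CAGGTG, searched on both strands, the sequence that SNAI and ZEB proteins bind, which is present in 20.6% of the windows. Neither held the androgen receptor half-site AGAACA, searched on both strands, present in 14.8%. These matches are letters within a short window and describe neither binding nor its absence elsewhere. RefSeq windows were at hand for 5 of the 10 genes, KRT8, CDH2, VIM, ZEB1 and ZEB2, with 12 windows in all. Of these, 2 of the ZEB1 windows held CAGGTG, once and 3 times, and no window held AGAACA.

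On the GRCh38 annotation used for counting, CDH1 (ENSG00000039068) lies at chr16:68737225-68835548 on the plus strand, EPCAM (ENSG00000119888) at chr2:47345158-47387601 on the plus strand, KRT8 (ENSG00000170421) at chr12:52897187-52949954 on the minus strand and KRT18 (ENSG00000111057) at chr12:52948871-52952901 on the plus strand. CDH2 (ENSG00000170558) lies at chr18:27950966-28177446 on the minus strand and VIM (ENSG00000026025) at chr10:17228259-17237593 on the plus strand. Of the repressors, ZEB1 (ENSG00000148516) lies at chr10:31318495-31529814 on the plus strand, ZEB2 (ENSG00000169554) at chr2:144384081-144524583 on the minus strand, SNAI1 (ENSG00000124216) at chr20:49982999-49988886 on the plus strand and SNAI2 (ENSG00000019549) at chr8:48917690-48921740 on the minus strand. KRT8 and KRT18 overlap at their 5' ends on opposite strands and share 525 exon bases, 7.63% of the exon bases of KRT8 and 16.3% of those of KRT18.

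Libraries held 15716224 to 21306019 counted fragments (median 17671721), so that 3 counts stand for 0.141 to 0.191 CPM (counts scaled to the size of the library). In LNCaP:C42, replicate 1 of siSCR R1881 and replicate 1 of siMETTL3 vehicle stood apart from their groups. The chi-square of counts per gene against the other two libraries was 30.4 and 30.8 for the first and 38.5 and 41.7 for the second, whereas it was 3.05 and 4.11 within the remaining pairs and at most 17.6 in any other pair of replicates. Mitochondrial genes took 7.08% of the first against 9.73% and 9.69%, and 9.60% of the second against 6.89% and 7.03%. Values without these libraries are given beside many of the LNCaP:C42 results they touch, though not all.

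METTL3, the target of the pool, was read first. In LNCaP:C42 the siSCR libraries held 31.2, 28.5 and 26.5 CPM in vehicle and 30.6, 33.6 and 35.9 in R1881, against 19.9, 19.7 and 17.5 and then 22.7, 22.0 and 22.6 under siMETTL3. In 22Rv1 they held 46.5, 45.4 and 46.7, then 51.6, 48.8 and 50.8, against 25.3, 24.1 and 25.4 and then 21.4, 24.7 and 21.2. No siMETTL3 library reached any siSCR library of its line and treatment, and the fitted log2 changes were -0.61 and -0.57 in LNCaP:C42 (adjusted p = 0.0127 and 0.0256) and -0.89 and -1.18 in 22Rv1 (adjusted p = 1.48e-06 and 1.29e-08). The LNCaP:C42 value in R1881 passed on p but not the fold limit of 1.5 that a call requires here. Without siSCR R1881 replicate 1, which stood apart, that value was -0.65 and was called (adjusted p = 0.00791 by edgeR). METTL3 RNA was still read in every siMETTL3 library. In LNCaP:C42 the vehicle call was lost without any 1 of siSCR replicates 1 and 3 and siMETTL3 replicates 2 and 3, with log2 values between -0.66 and -0.55 over the 6 libraries left out in turn, and in a fit of those 6 libraries alone (adjusted p = 0.0540). METTL3 shares 388 exon bases with TOX4 on the other strand.

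All 8 prostate luminal markers averaged at least 1 CPM in both lines and both treatments, whereas none of the 4 basal markers did in any. KRT5 stayed at 2 counts or fewer in every library and TP63 at 7 or fewer. KRT14 and KRT15 reached 1 and 2 counts in LNCaP:C42 vehicle but 14 and 27 with R1881, and at most 1 count in 22Rv1. The lists of other cell types were mixed. Of 9 fibroblast and smooth muscle markers, 2 averaged at least 1 CPM in LNCaP:C42 and 4 in 22Rv1, in each treatment. COL1A1 reached 71.9 CPM and PDGFRB 4.25 in LNCaP:C42, and LUM reached 4.25 and ACTA2 2.18 in 22Rv1, while COL1A2 stayed at 1 count or fewer and DCN at 5 or fewer. The endothelial VWF reached 12.3 CPM in LNCaP:C42, with PECAM1 at 2 counts or fewer, and the immune PTPRC reached 28 counts there in vehicle, with CD3E and CD68 at 3 or fewer. Of the neuroendocrine list, ENO2 was read in both lines (43.8 to 245 CPM), SYP at 77.7 to 119 CPM in 22Rv1 against at most 2.51 in LNCaP:C42, and CHGA at no more than 1.30 CPM. All libraries come from cultures of a single cell line, and these lists are read as transcripts only. The source of these transcripts, and any bearing on the results below, was not tested.

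Per length of transcript, both lines sat at the epithelial end of the 10 genes. In vehicle-treated siSCR cells of LNCaP:C42, the mean level in RPKM, CPM divided by the exon length in kilobases (SD, n = 3), was 135 ± 1.72 for CDH1, 55.1 ± 0.963 for EPCAM, 48.04 ± 4.17 for KRT8 and 46.6 ± 4.29 for KRT18. The next gene in that order, SNAI1, stood at 1.83 ± 0.297, followed by VIM at 0.687 ± 0.204 and SNAI2 at 0.0729 ± 0.0416. ZEB1 held 4 counts in the 3 libraries and CDH2 and ZEB2 none. KRT8 and KRT18 were the only expressed neighbours in this order whose libraries overlapped.

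In 22Rv1 the same order began with CDH1 at 68.2 ± 1.19 RPKM, KRT18 at 59.99 ± 7.12, KRT8 at 48.2 ± 4.49 and EPCAM at 40.6 ± 0.717. CDH2 came next at 2.61 ± 0.372, then SNAI1 at 0.285 ± 0.0353 and VIM at 0.153 ± 0.0491. ZEB1 held 14 counts, 13 of them in 1 library, and SNAI2 and ZEB2 none. In both lines every library of the 4 epithelial genes thus stood above every library of the mesenchymal genes and repressors. The highest of the latter was SNAI1 in LNCaP:C42 and CDH2 in 22Rv1.

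**Figure D1:**
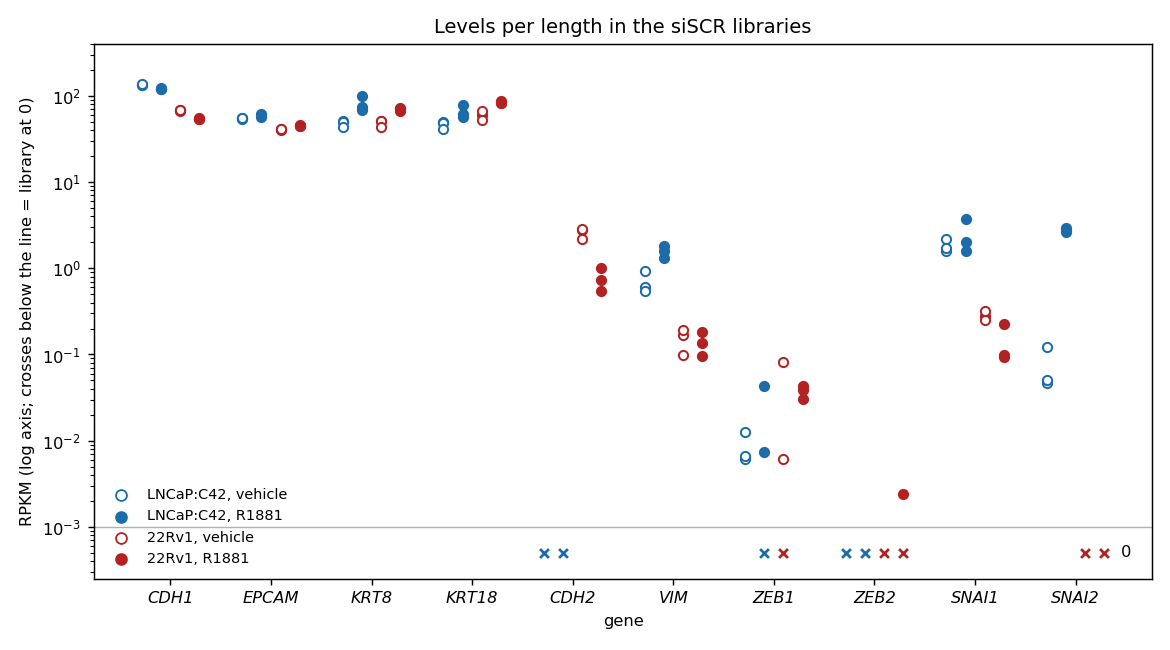
Level of each of the 10 genes per transcript length (RPKM, log axis) in the 12 siSCR libraries, 1 point per library, blue for LNCaP:C42 and red for 22Rv1, open for vehicle and filled for R1881, with libraries at 0 as crosses below the line. CDH1, EPCAM, KRT8 and KRT18 lie together near the top, from 40.6 to 135 RPKM as vehicle means, whereas CDH2 shows only in 22Rv1 and SNAI2 reaches 2.77 RPKM on average only in LNCaP:C42 with R1881.

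Between the lines, in siSCR vehicle, 5 of the 8 genes that could be tested were called at an adjusted p under 0.05 and a fold of at least 1.5, 1 higher and 4 lower in 22Rv1. The background of this comparison is high, with 59.2% of all 19437 tested genes called, so the share among these genes is near the background. CDH2, SNAI1 and SNAI2 passed the filter on low counts through 1 line only, and so had to differ. With R1881 under siSCR it was again 5 of 8, 1 higher and 4 lower, beside 60.1% of all genes. Scaling by library size alone moved the median of all genes by 0.149 and 0.208 on the log2 scale in these comparisons and turned no call. Line and any handling that differed between the lines cannot be told apart.

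CDH1 held 819, 834 and 840 CPM in the vehicle siSCR libraries of LNCaP:C42 and 419, 415 and 429 in those of 22Rv1. Every 22Rv1 library lay well below every LNCaP:C42 library, with a log2 difference of -0.98 ± 0.07 (SE, adjusted p = 5.30e-12), and with R1881 the difference was -1.16. EPCAM, an epithelial adhesion molecule, was lower in 22Rv1 as well, at 136, 140 and 140 against 100, 104 and 103 CPM. Its log2 difference of -0.44 ± 0.06 had an adjusted p of 7.75e-07 but stayed under the fold limit.

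The keratins split. KRT8 held 353, 341 and 298 CPM in LNCaP:C42 and 350, 349 and 296 in 22Rv1, a log2 difference of 0.00 with a 95% interval of -0.23 to 0.24. Its partner KRT18 held 158, 158 and 134 CPM against 194, 216 and 170, higher in every 22Rv1 library, with a log2 difference of 0.36 ± 0.10 (adjusted p = 0.00287, under the fold limit). The ratio of KRT8 to KRT18 per length ran from 1.01 to 1.31 in the 12 LNCaP:C42 libraries and from 0.756 to 0.966 in the 12 of 22Rv1, so the lines did not overlap in it whatever the siRNA or treatment. Counting did not use strand and left out fragments over both genes, and fragments that align to several places were left out too: the 51 annotated KRT8 pseudogenes together held 3.39% of the count of KRT8 and the 67 of KRT18 0.919% of that of KRT18.

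CDH2 was read in 22Rv1 alone. The 12 LNCaP:C42 libraries held 1 CDH2 count between them, while the vehicle siSCR libraries of 22Rv1 held 268, 202 and 258 counts, or 13.9, 10.8 and 14.1 CPM. Against a floor of 3 counts per library this is at least 77.6-fold higher in 22Rv1 (adjusted p = 9.95e-13), and with R1881, where CDH2 was lower in 22Rv1, at least 21.3-fold. CDH2 passed the filter only through 22Rv1.

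VIM went the other way. It held 2.98, 2.68 and 4.57 CPM in vehicle siSCR libraries of LNCaP:C42 and 0.831, 0.963 and 0.491 in those of 22Rv1, or 50 to 79 against 9 to 18 counts. The groups did not overlap, and the log2 difference was -2.14 ± 0.29 (adjusted p = 2.89e-07), widening to -3.50 with R1881. VIM shares 641 exon bases (12.9% of its exons) with the antisense gene VIM-AS1, whose counts over all libraries came to 27.3% of those of VIM. Counting did not use strand, and fragments over exons of both genes were left out of both counts.

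Both SNAI genes were lower in 22Rv1. SNAI1 held 2.70, 3.65 and 2.89 CPM in LNCaP:C42 against 0.468, 0.428 and 0.545 in 22Rv1, with no overlap and a log2 difference of -2.67 ± 0.35 (adjusted p = 1.24e-07). SNAI1 passed the filter only through LNCaP:C42, so it had to differ. With R1881 it was 13 counts in the 3 libraries of 22Rv1 against 210 in those of LNCaP:C42, a ratio of 17.4 (95% counting interval 9.97 to 33.3). SNAI2 held 5, 2 and 2 counts in LNCaP:C42 vehicle and none in 22Rv1, too few for a fold (adjusted p = 0.0136, and 0.0565 without LNCaP:C42 siSCR vehicle replicate 1). With R1881 it was at least 38.9-fold lower in 22Rv1, again as a gene that passed the filter only through LNCaP:C42.

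ZEB1 and ZEB2 were near the limit of detection everywhere. ZEB1 held 78 counts over the 24 libraries, with 0 to 13 in any of them, and ZEB2 held 2. The antisense gene ZEB1-AS1, which shares 366 exon bases with ZEB1, held 3572 counts over the same libraries. Neither ZEB gene passed the filter in any comparison, and no difference in them was detectable at this depth. Between the lines under siMETTL3, 4 of the 8 genes tested were called in vehicle and 5 in R1881, beside 58.4% and 60.7% of all genes. Here too CDH2, SNAI1 and SNAI2 were tested only because they passed the filter through 1 line.

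**Figure D2:**
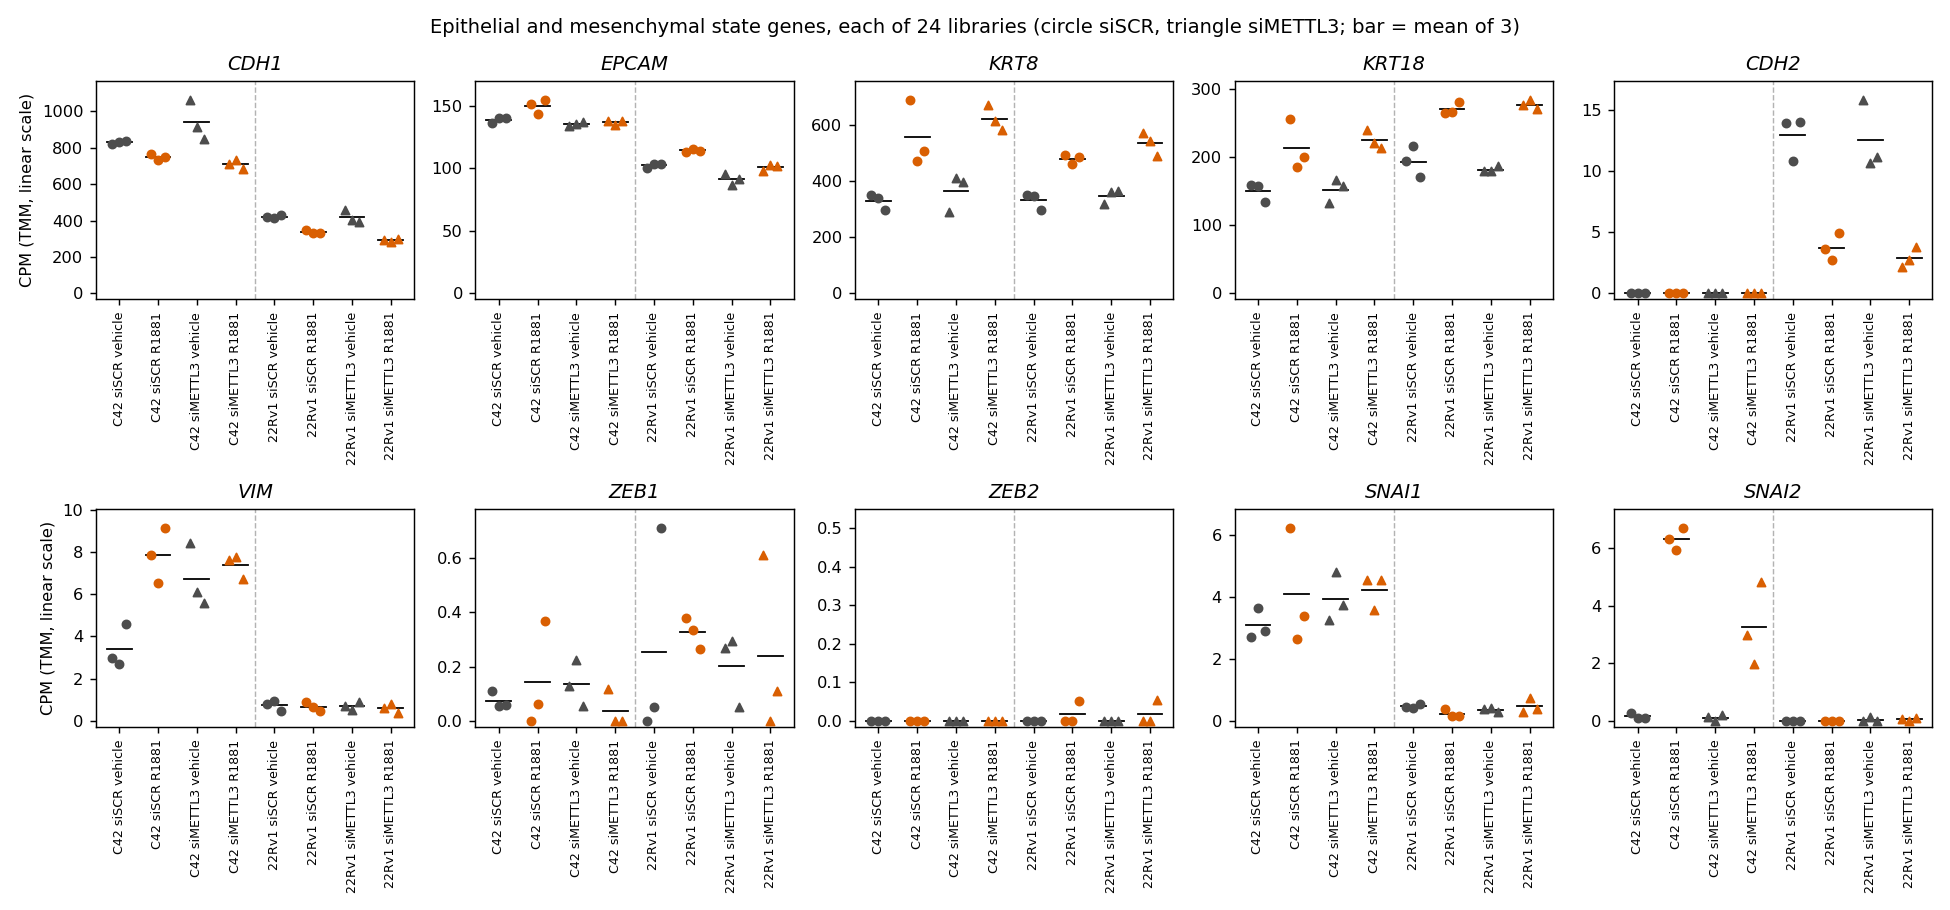
CPM of each gene in each of the 24 libraries (linear axes from 0, 1 panel per gene; C42 stands for LNCaP:C42; circles for siSCR, triangles for siMETTL3, grey for vehicle, orange for R1881, bars for the mean of 3). KRT8 and KRT18 are higher with R1881 in both lines, and CDH2 is lower with R1881 in 22Rv1. In LNCaP:C42, SNAI2 is higher with R1881 under both siRNA pools and VIM under siSCR.

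The question put to the androgen arm was which of these genes respond to R1881 and whether depletion of METTL3 alters that. In LNCaP:C42 under siSCR, 3 of the 7 genes tested rose at the set threshold, KRT8, VIM and SNAI2, and none fell, beside 15.1% of all 16435 tested genes called in either direction. In 22Rv1 under siSCR, 1 of 6 was called, CDH2, which fell, beside 13.8% of all 17865. Under siMETTL3, 2 of 7 rose in LNCaP:C42 (KRT8 and SNAI2, beside 10.6% of all genes) and in 22Rv1 KRT8 rose and CDH2 fell, 2 of 6 (beside 13.5%). The LNCaP:C42 counts include SNAI2, which passed the filter on low counts only through R1881 libraries and so had to differ. The other calls there were KRT8 and VIM under siSCR and KRT8 under siMETTL3. The genes not tested for want of counts were CDH2, ZEB1 and ZEB2 in LNCaP:C42 and ZEB1, ZEB2, SNAI1 and SNAI2 in 22Rv1.

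CDH1 was lower with R1881 in each line under each pool, by a small margin. In 22Rv1 siSCR it moved from 419, 415 and 429 CPM to 346, 329 and 334, and under siMETTL3 from 457, 405 and 393 to 294, 282 and 297. The treated libraries lay below all vehicle libraries of their pool, and the log2 changes of -0.33 ± 0.07 (adjusted p = 0.000489) and -0.55 ± 0.07 (adjusted p = 1.17e-06) passed the test on p but not the fold limit.

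In LNCaP:C42 the siSCR libraries held 819, 834 and 840 CPM of CDH1 in vehicle and 767, 735 and 751 with R1881. These did not overlap, yet the log2 change of -0.16 ± 0.09 did not pass (adjusted p = 0.209). Under siMETTL3 they were 1061, 917 and 848 against 712, 733 and 684, with a log2 change of -0.40 ± 0.09 (adjusted p = 0.00436, under the fold limit). With 1 library left out in turn this change ran from -0.46 to -0.31. The test of whether the CDH1 response differed between the lines under siSCR gave a log2 difference of -0.18 (adjusted p = 0.280).

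EPCAM moved little. The R1881 libraries held 144 to 154 CPM against 136 to 140 in LNCaP:C42 siSCR, and 113 to 116 against 100 to 104 in 22Rv1 siSCR. The 4 log2 changes ran from 0.03 to 0.15, with adjusted p from 0.0785 to 0.863, so none passed. In LNCaP:C42 their sign depended on the scaling: with library size alone, which moved the median of all genes by -0.12 under siSCR, they became -0.016 and -0.054. Taking CDH1 over EPCAM per length within each library, 22Rv1 siSCR and siMETTL3 together ranged from 1.63 to 1.96 in vehicle and 1.12 to 1.25 with R1881, without overlap. LNCaP:C42 did not overlap either, at 2.43 to 3.24 in vehicle and 1.99 to 2.22 with R1881 over both pools. Its highest value was in siMETTL3 vehicle replicate 1, which stood apart.

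The keratin pair was higher with R1881 in every one of the 4 settings. In LNCaP:C42 siSCR, KRT8 held 353, 341 and 298 CPM in vehicle and 689, 473 and 508 with R1881, without overlap, and the fitted rise was 1.67-fold (log2 0.74 ± 0.14, adjusted p = 0.00126). Replicate 1 of the treated group stood highest, in KRT18 and SNAI1 as well. Without it the KRT8 value was 0.58, just under the fold limit (adjusted p = 0.00388). Under siMETTL3 the values were 292, 410 and 399 against 672, 616 and 584 CPM, a log2 change of 0.78 ± 0.14 (adjusted p = 0.00119), and 0.63 (adjusted p = 0.00193) without siMETTL3 vehicle replicate 1.

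In 22Rv1, KRT8 moved from 350, 349 and 296 CPM to 496, 461 and 486 under siSCR, again without overlap. That log2 change of 0.53 ± 0.08 (adjusted p = 3.09e-05) was under the fold limit, and the one under siMETTL3, 0.60 ± 0.08 (adjusted p = 6.76e-06), just over it. These 2 values differ by less than 1 SE. The call under siMETTL3 was lost without siMETTL3 vehicle replicate 1 or siMETTL3 R1881 replicate 1 (range 0.53 to 0.66) and with library size alone (0.54).

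KRT18 followed KRT8. Its libraries went from 158, 158 and 134 to 255, 185 and 200 CPM in LNCaP:C42 siSCR and from 194, 216 and 170 to 264, 266 and 280 CPM in 22Rv1 siSCR. The log2 changes were 0.50 ± 0.12 (adjusted p = 0.00625) and 0.48 ± 0.08 (adjusted p = 5.22e-05), and 0.57 ± 0.12 and 0.58 ± 0.08 under siMETTL3 (adjusted p = 0.0033 and 4.27e-06). All 4 passed on p and fell short of 1.5-fold, the last by less than 0.01 on the log2 scale. Under siMETTL3 the fold limit was just passed in 22Rv1 with DESeq2 and with RLE size factors (0.59 in both), with no filter (0.60) and without vehicle or R1881 replicate 3 of siMETTL3 (0.61 and 0.60), and in LNCaP:C42 without siMETTL3 vehicle replicate 2 or 3 or siMETTL3 R1881 replicate 3 (0.60 to 0.65). Without the LNCaP:C42 libraries that stood apart the values were 0.37 under siSCR and 0.48 under siMETTL3. Counts of the annotated pseudogenes added to KRT8 and KRT18 changed no call of either gene.

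By the likeness rule, the 3 genes whose log2 CPM lay closest to KRT8 over the 24 libraries, after centring within each line, were AGTRAP, STK40 and KRT18. They stood at root mean square differences of 0.112, 0.113 and 0.118 out of 12934 genes, where the spread (SD) of KRT8 itself was 0.372. Because the points share line, library and treatment, this is a description only. The rule asks for a gene called with R1881 at a mean of at least 1 CPM in both lines, which among the 10 only KRT8 met.

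CDH2 in 22Rv1 had the most marked fall. The siSCR libraries held 13.9, 10.8 and 14.1 CPM in vehicle and 3.60, 2.72 and 4.94 with R1881, and the siMETTL3 libraries 15.8, 10.7 and 11.2 against 2.13, 2.77 and 3.77. Every treated library lay below every vehicle library, and the log2 changes were -1.78 ± 0.20 (adjusted p = 5.35e-07) and -2.13 ± 0.21 (adjusted p = 7.69e-08). Because CDH1 was lower too but far less, the ratio of CDH1 to CDH2 per length moved from a mean of 26.4 (24.1 to 30.8) to 76.0 (54.2 to 96.9) under siSCR, and from 23.2 to 30.3 up to 63.1 to 111 under siMETTL3. Both cadherins were thus lower with R1881 in 22Rv1.

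VIM responded in 1 setting of the 4. In LNCaP:C42 siSCR it rose from 2.98, 2.68 and 4.57 CPM to 7.87, 6.52 and 9.12, without overlap, by 2.29-fold (log2 1.20 ± 0.22, adjusted p = 0.000893), and by 1.21 on the log2 scale without R1881 replicate 1. Under siMETTL3 the libraries held 8.41, 6.08 and 5.59 CPM in vehicle and 7.63, 7.77 and 6.73 with R1881, with a log2 change of 0.16 ± 0.21 and a 95% interval of -0.25 to 0.57 (adjusted p = 0.668). Without siMETTL3 vehicle replicate 1, the library at 8.41, it was 0.34 (adjusted p = 0.306). VIM-AS1 was lowest in the same group, at 0.868 ± 0.158 CPM (SD, n = 3) in siSCR vehicle, 2.14 ± 0.516 in siSCR R1881, 2.23 ± 0.437 in siMETTL3 vehicle and 1.57 ± 0.368 in siMETTL3 R1881. Fragments over exons of both genes were counted for neither, and any other part of VIM-AS1 in the VIM count was not tested.

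In 22Rv1, VIM stayed between 0.388 and 0.963 CPM in all 12 libraries, on 7 to 18 counts each. Its log2 changes were -0.16 ± 0.40 and -0.27 ± 0.41 (adjusted p = 0.796 and 0.658). The difference between the lines in the siSCR response was -1.36 ± 0.44 (adjusted p = 0.0317), 22Rv1 against LNCaP:C42, and VIM was called in that test, beside 16.8% of all genes. CDH1, EPCAM, KRT8, KRT18 and SNAI1 were not, and CDH2 and SNAI2, without a count in 1 line under siSCR, could not be judged by it. This call was lost without any 1 of 7 of the 12 libraries (LNCaP:C42 vehicle replicates 1 and 2 and R1881 replicate 3, and 22Rv1 vehicle replicates 1 and 2 and R1881 replicates 2 and 3), with values from -1.66 to -1.18. Under siMETTL3 none of the 8 was called in the same test by edgeR (1 at an unadjusted p under 0.05; 1 by DESeq2), beside 15.3% of all genes, where CDH2 held at most 1 count in a group of LNCaP:C42 and SNAI2 3 in a group of 22Rv1. Genes listed as markers of other cell types did not all stay level in the LNCaP:C42 cultures. VWF, of the endothelial list, held 2.23 to 3.43 CPM in vehicle and 4.54 to 12.3 with R1881. PECAM1 stayed at 1 count or fewer there and CDH5 at 4 or fewer. PTPRC, of the immune list, went the other way, from 0.127 to 1.62 CPM in vehicle to 0 with R1881. The summed fibroblast and smooth muscle list held 44.6 to 75.0 and 42.5 to 68.9 CPM. Any bearing of these genes on the VIM result was not tested.

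SNAI2, a zinc finger repressor of CDH1, went from almost nothing to a clear level in LNCaP:C42. In vehicle the siSCR libraries held 5, 2 and 2 counts, and with R1881 107, 92 and 127, or 6.33, 5.94 and 6.70 CPM. The counts stand in a ratio of 38.1 (95% counting interval 19.8 to 84.1), with a fitted log2 change of 5.18 ± 0.47 (adjusted p = 7.57e-07). Under siMETTL3 they went from 2, 0 and 4 to 51, 35 and 84 counts, a ratio of 27.97 (12.6 to 77.3) and a log2 change of 4.74 ± 0.53 (adjusted p = 1.03e-05). As SNAI2 passed the filter only through its treated libraries, it had to differ. In 22Rv1 it held 6 counts over the 12 libraries.

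SNAI1 gave no call. In LNCaP:C42 siSCR it held 2.70, 3.65 and 2.89 CPM in vehicle and 6.21, 2.65 and 3.38 with R1881. Only the first treated library lay above the vehicle range, and the log2 changes were 0.39 ± 0.28 under siSCR (adjusted p = 0.332; -0.02 without that library) and 0.11 ± 0.27 under siMETTL3 (adjusted p = 0.832). In 22Rv1 siSCR, 27 counts in vehicle stood against 13 with R1881, a ratio of 0.489 with a 95% counting interval of 0.232 to 0.981, below the depth at which it was tested. The interval covers counting error only.

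**Figure D3:**
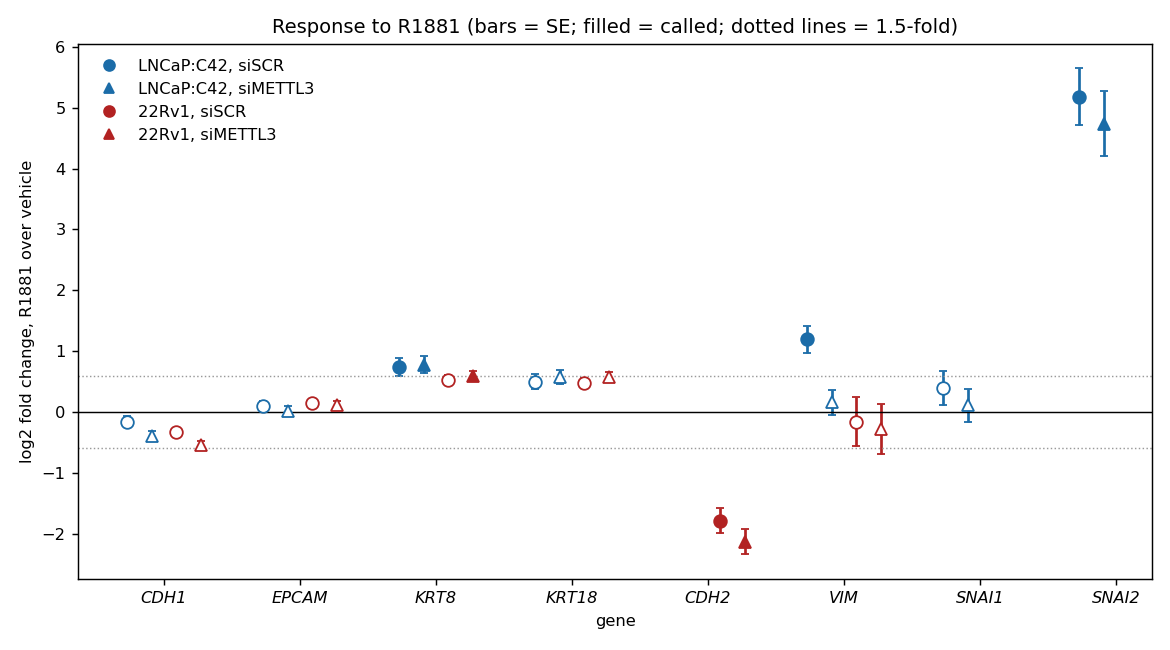
Fitted log2 change with R1881 over vehicle for the 8 genes tested in at least 1 line, with SE bars, blue for LNCaP:C42 and red for 22Rv1, circles for siSCR and triangles for siMETTL3, filled where called, with dotted lines at 1.5-fold. SNAI2 at 5.18 and 4.74 in LNCaP:C42 and CDH2 at -1.78 and -2.13 in 22Rv1 stand apart, KRT8 and KRT18 sit between 0.48 and 0.78 in all 4 settings, and VIM is filled only in LNCaP:C42 siSCR.

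Depletion of METTL3 had few effects on these genes. In LNCaP:C42 vehicle, VIM was the only 1 of 7 called, beside 1.2% of all genes. It moved from 2.98, 2.68 and 4.57 to 8.41, 6.08 and 5.59 CPM, every siMETTL3 library above every siSCR library, with a log2 change of 0.95 ± 0.22 (adjusted p = 0.0431). The library at 8.41 is the replicate 1 that stood apart from its group, and without it the change was 0.76 (adjusted p = 0.0654). The call was fragile: it was lost without any 1 library but siMETTL3 vehicle replicate 3, with values from 0.76 to 1.22, and in a fit of the 6 libraries alone (adjusted p = 0.118). With R1881, VIM held 7.87, 6.52 and 9.12 under siSCR and 7.63, 7.77 and 6.73 CPM under siMETTL3, a log2 change of -0.09 (adjusted p = 0.804).

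The 2 VIM comparisons of R1881 and the 2 of siMETTL3 share libraries, and siSCR vehicle was the lowest of the 4 LNCaP:C42 groups. The test of the interaction itself, whether the R1881 response differed between the pools, gave VIM a log2 difference of -1.04 ± 0.30 (95% interval -1.63 to -0.45, adjusted p = 0.314). No gene of the 7, and none of 16435, passed it (0%), while 1 of the 7 had an unadjusted p under 0.05. Without the filter on low counts, VIM passed at an adjusted p of 0.0362.

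In LNCaP:C42 with R1881, none of the 7 was called by edgeR (1 at an unadjusted p under 0.05), beside 0.7% of all genes. Without siSCR R1881 replicate 1, which stood apart, again none of the 7 was called, while the share of all genes rose to 8.89%. SNAI2 held 6.33, 5.94 and 6.70 CPM under siSCR and 2.97, 1.98 and 4.83 under siMETTL3, lower in each library. Its log2 change of -0.95 ± 0.31 had an adjusted p of 0.0856 by edgeR, whereas DESeq2 gave 0.0312, the fit without the filter 0.00704 and that of the 6 libraries alone 0.0486. The interaction for SNAI2 was -0.44 ± 1.05 (adjusted p = 0.862), on 6 to 9 vehicle counts a group.

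In 22Rv1, none of the 6 was called with siMETTL3 in vehicle by edgeR (1 at an unadjusted p under 0.05; 0 by DESeq2), beside 0.202% of all genes, nor in R1881 (2 at an unadjusted p under 0.05; 0 by DESeq2), beside 3.29%. With R1881, CDH1 and EPCAM passed on p alone: CDH1 held 346, 329 and 334 under siSCR and 294, 282 and 297 CPM under siMETTL3 (log2 -0.22 ± 0.07, adjusted p = 0.0244), and EPCAM 113, 116 and 114 against 97.7, 103 and 101 (-0.20 ± 0.07, adjusted p = 0.0439). Both were lower in each siMETTL3 library, by less than the fold limit. CDH2 had a log2 change of -0.39 ± 0.24 (adjusted p = 0.280). The interaction called none of the 6 (1 at an unadjusted p under 0.05), beside 0.0168% of all genes, and no gene of the 8 was called in the test of whether the effect of siMETTL3 differed between the lines, beside 0.458% of all genes in vehicle and 0.0926% in R1881.

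Partner genes of the same programmes give the setting. Of 23 genes of adherens, tight and desmosomal junctions, 22 were tested in LNCaP:C42. With R1881 under siSCR 6 rose and 1 fell (median log2 0.08, against -0.03 over all genes; 7.39% of all genes rose and 7.72% fell). CLDN4 and CLDN3, claudins of tight junctions, rose by log2 0.80 ± 0.17 and 0.79 ± 0.21, from 303 to 532 and from 96.4 to 168 CPM on average. P-cadherin, CDH3, fell by 1.26 on the log2 scale, from 57.8 to 24.4 CPM. Without siSCR R1881 replicate 1 the counts were 3 and 1, and neither CLDN4 (0.54) nor CLDN3 (0.46, adjusted p = 0.0547 by edgeR) was called. Under siMETTL3 2 rose, CLDN3 (0.89) and CLDN4 (0.83), and 2 fell, CDH3 (-1.13) among them (5.09% and 5.54% of all genes), and 5 and 2 without siMETTL3 vehicle replicate 1. In 22Rv1, 0 of 23 rose and 1 fell under siSCR (4.19% of all genes rose and 9.64% fell), occludin (OCLN), by 0.88 on the log2 scale, and 1 rose (CRB3, 0.61) and 3 fell under siMETTL3, among them OCLN (-0.84) and CDH3 (-0.61).

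Of 11 other keratins, 4 were tested in LNCaP:C42 and 1 in 22Rv1. In LNCaP:C42 3 rose and 1 fell under both pools (median log2 3.20 and 2.57), where 7.39% of all genes rose and 7.72% fell under siSCR, and 5.09% and 5.54% under siMETTL3. With siMETTL3 vehicle replicate 1 left out, 2 rose and 1 fell under siMETTL3. KRT19, a keratin of simple epithelia, rose from 16.2 to 59.5 CPM under siSCR (log2 1.86 ± 0.16, and 1.31 under siMETTL3), and KRT80 fell from 3.46 to 1.04 (-1.73 ± 0.29, and -1.36). The other two, the basal keratins KRT14 and KRT15, named after their values were seen, reached at most 14 and 27 counts in R1881 libraries and passed the filter only through them, so the median rests on genes that had to differ. In 22Rv1 the 1 tested keratin, KRT19, was not called.

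Of 18 epithelial regulators, all were tested in LNCaP:C42 and 15 in 22Rv1. With R1881 4 rose and 1 fell in LNCaP:C42 siSCR (median 0.05), beside 7.39% and 7.72% of all genes. With siSCR R1881 replicate 1 left out, 3 rose and 1 fell. GRHL3 passed the filter in LNCaP:C42 only through vehicle libraries, so the filter favoured a fall in it. GRHL2, a grainyhead factor that maintains epithelial genes, rose from 114 to 244 CPM (log2 1.08 ± 0.09), and EHF, an ETS factor of epithelia, from 398 to 719 (0.85 ± 0.09). In 22Rv1 1 rose and 1 fell (median -0.01), beside 4.19% and 9.64%: KLF4 rose from 39.4 to 85.8 CPM (1.11 ± 0.10), and OVOL1, a repressor of mesenchymal genes, fell from 9.79 to 2.91 (-1.76 ± 0.16). Under siMETTL3 the counts were 3 and 0 in LNCaP:C42 (beside 5.09% and 5.54%), with KLF4 (log2 0.76; 0.68 and not called without siMETTL3 vehicle replicate 1) and GRHL2 (0.98) among the risers, and 1 and 1 in 22Rv1, again KLF4 (1.34) and OVOL1 (-1.40), where 4.18% of all genes rose and 9.29% fell.

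Of 21 mesenchymal matrix and cytoskeleton genes, 10 were tested in LNCaP:C42 and 12 in 22Rv1. With R1881 under siSCR 1 rose and 4 fell in LNCaP:C42 (median -0.41; 7.39% of all genes rose and 7.72% fell), and 1 rose and 5 fell in 22Rv1 (median -0.61, against 0.00 over all genes, of which 4.19% rose and 9.64% fell). Of the 10 tested in LNCaP:C42, TNC passed the filter only through vehicle libraries, so the filter favoured a fall in it. With siSCR R1881 replicate 1 left out, 1 rose and 3 fell in LNCaP:C42 (median -0.46). LOX, the collagen cross-linking enzyme, was the riser in each line: from 4.80 to 62.5 CPM in LNCaP:C42 (log2 3.69 ± 0.16) and from 2.88 to 5.76 in 22Rv1 (1.00 ± 0.20). Fibronectin, FN1, fell from 80.7 to 38.0 CPM in LNCaP:C42 (-1.10 ± 0.12), where COL5A1 fell as well (-1.32 ± 0.23), and tenascin C, TNC, fell from 99.7 to 20.3 in 22Rv1 (-2.30 ± 0.10), with COL5A2 (-0.98 ± 0.09). Under siMETTL3 the counts were 2 and 3 in LNCaP:C42 (beside 5.09% and 5.54%), and 1 and 6 in 22Rv1 (beside 4.18% and 9.29%), with LOX a riser in both (2.69 and 1.37). FN1 (-1.46) and COL5A1 (-1.52) fell in LNCaP:C42, and TNC (-2.38) and COL1A1 (-0.91) in 22Rv1.

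Of 24 further transcription factors and inducers of the transition, 15 were tested in LNCaP:C42 and 21 in 22Rv1. With R1881 none rose and 3 fell in LNCaP:C42 under each pool (medians -0.11 and -0.07), beside 7.39% of all genes that rose and 7.72% that fell under siSCR and 5.09% and 5.54% under siMETTL3. They were the Wnt effector LEF1 (-2.07 ± 0.28 under siSCR), the inhibitory SMAD7 (-1.28 ± 0.25) and GSC (-1.07 ± 0.23). In 22Rv1 1 rose and 8 fell under siSCR (median -0.14; 4.19% and 9.64% of all genes), and 1 rose and 5 fell under siMETTL3 (4.18% and 9.29%), among them SMAD7 (-0.92). The riser was TGFB2, a ligand of the TGF-beta pathway, from 1.27 to 24.3 CPM (log2 4.26 ± 0.21, 19.1-fold, and 19.4-fold under siMETTL3), while TGFB1, a second ligand, fell from 11.9 to 5.67 (-1.07 ± 0.15). SNAI3, of the SNAI family, fell from 1.80 to 0.723 (-1.31 ± 0.35).

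**Figure D4:**
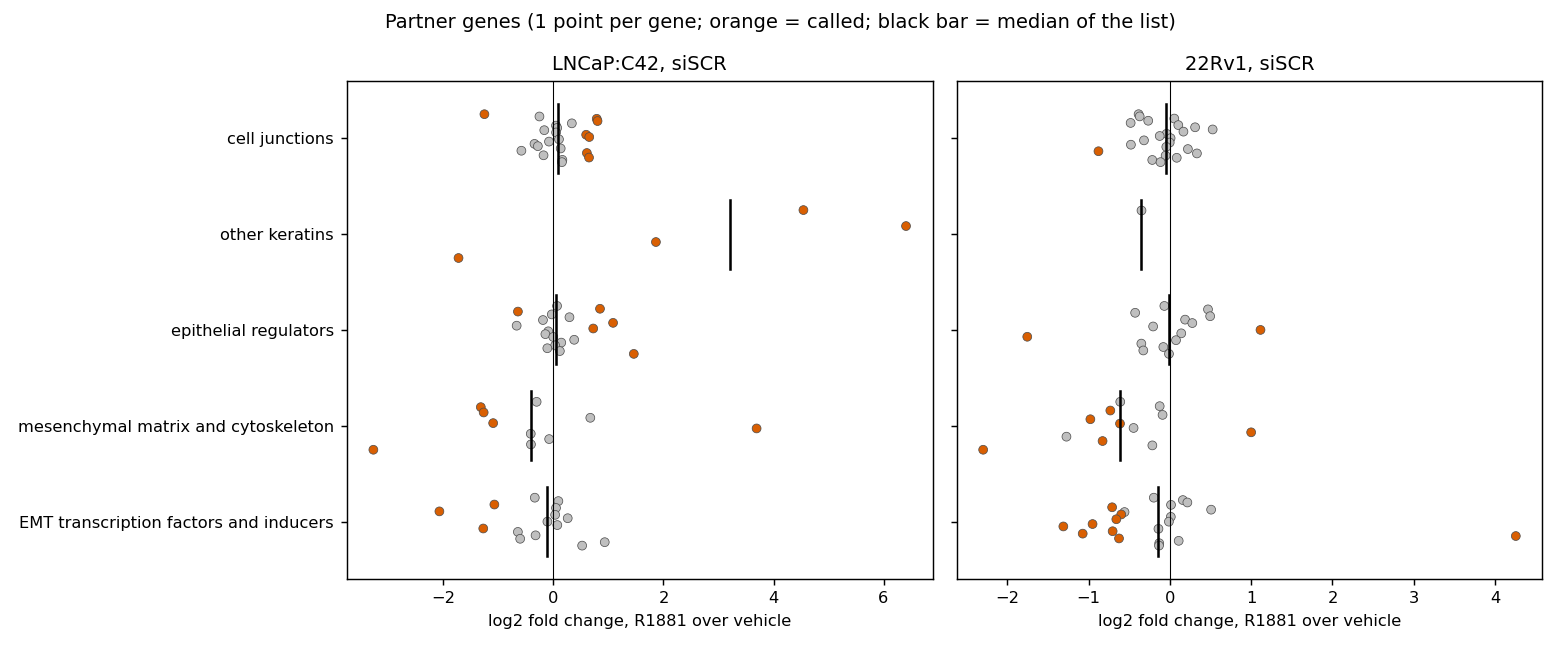
Fitted log2 change with R1881 over vehicle under siSCR for the tested partner genes, 1 point per gene, in 5 lists and both lines, orange where called, with a black bar at the median of each list. The mesenchymal matrix list has its median at -0.41 in LNCaP:C42 and -0.61 in 22Rv1 with LOX as the point called to the right, and TGFB2 stands alone at 4.26 in 22Rv1. In LNCaP:C42 the matrix list includes TNC, which passed the filter only through vehicle libraries.

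With siMETTL3 few partner genes were called. They were 2 of 69 tested in LNCaP:C42 vehicle (2.9%, beside 1.2% of all genes), 1 of 69 in R1881 (1.45%, beside 0.7%), 0 of 72 in 22Rv1 vehicle (beside 0.202%) and 1 of 72 in R1881 (1.39%, beside 3.29%). In LNCaP:C42 vehicle the desmosomal DSP rose from 154 to 252 CPM (log2 0.69 ± 0.12, adjusted p = 0.0123) and KRT19 from 16.2 to 31.9 (0.96 ± 0.16, adjusted p = 0.00977). With R1881, the tight junction gene CGN rose in LNCaP:C42 (0.64 ± 0.12, adjusted p = 0.0301) and TGFB2 fell in 22Rv1 from 24.3 to 14.8 CPM (-0.73 ± 0.15, adjusted p = 0.00465). The LNCaP:C42 counts turned on the libraries that stood apart: without siMETTL3 vehicle replicate 1, 5 of 69 were called in vehicle (beside 2.01% of all genes), with DSP at 0.54 under the fold limit and KRT19 still called (0.95), and without siSCR R1881 replicate 1, 13 of 69 in R1881 (beside 8.89%), CGN among them (0.69).

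Between the lines in siSCR vehicle, where 31.2% of all genes were higher and 27.9% lower in 22Rv1, the counts over the lists are given as a description, since genes that passed the filter through 1 line only had to differ. Of 18 epithelial regulators 4 were higher and 10 lower (median log2 -0.62, against 0.03 over all genes), with 3 that passed only through LNCaP:C42. Of 22 tested transcription factors and inducers 13 were higher and 6 lower (median 1.02), with 7 that passed only through 22Rv1, TWIST1, FOXC1 and PRRX1 among them, and 1 only through LNCaP:C42. RAB25, a small GTPase of epithelia, held 91.4 CPM in LNCaP:C42 and 0.267 in 22Rv1, whereas KLF4 was higher (2.87 ± 0.20). TWIST1, a mesenchymal helix-loop-helix factor, was at 0 in LNCaP:C42 and at 16.01 ± 2.26 CPM (SD, n = 3) in 22Rv1, at least 96.1-fold higher. FOXC1 held 1 count against 519, and PRRX1 none against 179, at least 19.1-fold higher.

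Of 13 tested matrix and cytoskeleton genes 6 were higher and 4 lower in 22Rv1 (median 0.40), with 3 that passed only through 22Rv1, CD44 among them, and 1, S100A4, only through LNCaP:C42. CD44, a hyaluronan receptor, was at 0 in LNCaP:C42 and at 34.6 CPM in 22Rv1, at least 208-fold higher, TNC was higher by a log2 of 6.93 ± 0.22, and S100A4 lower, at 3 counts against 130, a ratio of 45.1 (15.1 to 222). Of 23 junction genes 2 were higher and 8 lower (median -0.11), with 1 that passed only through 22Rv1. Plakoglobin, JUP, and the scaffold TJP1 were lower (-2.09 ± 0.11 and -2.06 ± 0.11), and CGN was higher (1.82 ± 0.12). Of 4 tested keratins 2 were lower and none higher, with 3 that passed only through LNCaP:C42, KRT80 among them. The 2 lower were KRT19 (-1.29 ± 0.17) and KRT80, with 4 counts against 187, a ratio of 48.7 (18.7 to 181).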

How the data were processed

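RNA-seq of 24 libraries, 3 per group, was read from 1 table of raw counts per library. The authors trimmed reads, aligned them with STAR to GRCh38 and deposited fragment counts per gene made with featureCounts 1.5.0 on Ensembl release 83, without strand, leaving out fragments that align to several places or overlap several genes. The unused columns of other samples numbered 0.

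CPM with TMM factors over the 24 libraries, and RPKM with the exon lengths of the tables, were computed for levels. Tests used edgeR 4.0.16 (filterByExpr, TMM, quasi-likelihood test, Benjamini-Hochberg over all tested genes): the 12 libraries of a line for R1881, siMETTL3 and their interaction, and all 24 for the lines. Called means an adjusted p under 0.05 and a fold of at least 1.5, with no fold limit for interactions and differences between lines. Scripts ran in R 4.3.3 and Python 3.11.15 and were tested on simulated counts. Other settings were DESeq2 1.42.0, other scaling and filters, a replicate block, the 6 libraries alone, pseudogene counts added, no fold limit, and each library left out. No pair of replicates agreed within sampling noise.

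Named were all 10 genes and METTL3. From each of 5 partner lists, named were the 3 called genes with the largest change in each R1881 comparison and between lines in siSCR vehicle, at a mean of at least 1 CPM, and each partner called with siMETTL3. For members called with R1881 at a mean of 1 CPM or more in both lines, the 3 genes nearest in log2 CPM were named (prior count 0.5). Some genes that this rule names are counted within their lists but not reported here by name. The members and lists were chosen with earlier results of these data known. Intervals of count ratios cover counting error only. Those of fitted log2 values come from the SE of the edgeR fit, which takes in the spread between libraries.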

Additional observations from a re-analysis of the deposited data

Results flagged for a closer look

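VIM was marked because its response to R1881 differed between the lines by a test of the difference itself. In siSCR cells the log2 change was 1.20 ± 0.22 in LNCaP:C42, from 2.98, 2.68 and 4.57 to 7.87, 6.52 and 9.12 CPM, and -0.16 ± 0.40 in 22Rv1, from 0.831, 0.963 and 0.491 to 0.915, 0.667 and 0.478 CPM. The difference was -1.36 (adjusted p = 0.0317, edgeR over all 24 libraries), on 9 to 18 counts per 22Rv1 library. This call was fragile, as it was lost without any 1 of 7 of the 12 libraries compared.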

How the results depend on the processing

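Of the settings tried over 52 results on single genes of the 10, 681 kept the direction and the side of the threshold, 19 lost a call, 28 gained one and 12 turned the sign. With library size alone, EPCAM with R1881 in LNCaP:C42 became -0.016 (siSCR) and -0.0538 (siMETTL3) and KRT8 between lines in R1881 0.0016. Without the filter KRT8 between lines in vehicle became -0.000812. With 1 library left out, the sign also turned for SNAI1 with R1881 in LNCaP:C42 (-0.021 to 0.61 under siSCR, -0.013 to 0.28 under siMETTL3), VIM with siMETTL3 in R1881 there (-0.20 to 0.033), the SNAI2 interaction (-1.03 to 0.45), VIM with R1881 in 22Rv1 siSCR (-0.42 to 0.043) and KRT8 between lines in vehicle (-0.029 to 0.14). None of these was a call, and the cause was not tested.

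The count of the genes called was most open to the filter and the fold limit. With at least 10 counts in every library, which by construction removes SNAI2 within LNCaP:C42, VIM within 22Rv1 and CDH2, VIM, SNAI1 and SNAI2 between the lines, it was 1 with R1881 in LNCaP:C42 siMETTL3, 1 in each comparison of the lines, and 0 for the line difference in the siSCR response. With no fold limit it was 4 with R1881 in LNCaP:C42 siMETTL3, 4 in 22Rv1 siSCR, 4 in 22Rv1 siMETTL3 and 2 with siMETTL3 in 22Rv1 R1881. With siMETTL3 in LNCaP:C42 vehicle it was 0 with the 6 libraries alone, and in R1881 it was 1 (SNAI2) with DESeq2, without the filter and with the 6 libraries alone. Without the filter the interaction in LNCaP:C42 gave 1 (VIM) and the line difference in the siMETTL3 response to R1881 gave 1. DESeq2 gave 1 there and 2 under siSCR. With 1 library left out the counts were 0 to 1 for siMETTL3 in LNCaP:C42 vehicle, 1 to 4 for R1881 in 22Rv1 siMETTL3, 0 to 2 for the line difference under siSCR and 0 to 1 under siMETTL3.

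Over all genes, calls with R1881 numbered 2484 and 1747 in LNCaP:C42 and 2471 and 2406 in 22Rv1 (siSCR, siMETTL3), and 4081, 2728, 5903 and 5917 with no fold limit. Library size alone moved the share of calls that were higher from 48.9% to 34% in LNCaP:C42 siSCR.

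Replicate numbers did not pair the libraries: deviations of same-numbered libraries had a mean correlation of -0.01 in each line, over 0.1 in 8 of 18 and 4 of 18 pairs. With the replicate number as a block, VIM with siMETTL3 in LNCaP:C42 vehicle had a log2 change of 0.96 (adjusted p = 0.0607), which took the count there to 0. Depth limits ZEB1 and ZEB2 in both lines, CDH2 in LNCaP:C42, and VIM, SNAI1 and SNAI2 in 22Rv1.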
